A study of Mus musculus with 29 samples.

Results

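Transcripts of 30 genes of fatty acid oxidation and ketone body metabolism were followed in mouse mammary fat across 6 diet groups. The genes were taken from a fixed list of mitochondrial and peroxisomal oxidation enzymes, their carriers and regulators, and enzymes of ketone body use. That list was chosen with earlier results of these data known, so a share above the background is not independent support. All 30 were found among the 30818 gene symbols of the table and all 30 passed the filter on low values, which kept 19387 genes. They fall into 9 roles, named in the role paragraphs that follow.

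RNA-seq had been made from C57BL/6N mice of wild-type genotype (wt in the labels), with 4 libraries in the MCR group and 5 in every other group. Control mice were fed the diet D12450J. Every other mouse was first made obese on the diet D12492, of which 60% is fat, and then either stayed obese (Obese) or changed diet. The changed diets were a low-fat diet eaten freely (LFD), a low-fat diet with calories cut by 30% (LFCR), a Mediterranean-style diet with calories cut by 30% (MCR), and an intermittent calorie cut (ICR). Mice of all 6 groups, Control included, had been injected in week 25 with E0771 mouse mammary cancer cells in gland 4 and so carried a tumor graft, and RNA is described as from the opposite gland, number 9, taken at the tumor endpoint. The sample titles begin with the word tumor, and the cell fields name E0771, whereas the tissue and source fields name normal mammary tissue of the other side, which is followed here. No sex or age at collection is stated in the labels. The tissue was a whole gland and not sorted cells, so fewer cells of a type and less RNA per cell cannot be told apart in any value given here. Each library is taken as 1 mouse from its own title number, so a p-value here speaks of the spread among the libraries at hand.

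In fatty acid oxidation, a fatty acid is joined to coenzyme A, passed through the mitochondrial membranes as a carnitine ester, and then shortened in rounds of dehydrogenation, hydration, a second dehydrogenation and thiolysis, each round releasing acetyl-CoA. Peroxisomes run a related spiral on very long and branched chains, and the liver turns surplus acetyl-CoA into ketone bodies that other tissues burn. White fat mostly stores and releases fatty acids, and it nevertheless carries the oxidation enzymes in its adipocytes. PPARα, the nuclear receptor encoded by Ppara, is a classic activator of these genes in liver during fasting.

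Values are given as normalized counts, which are read counts divided by each library's size factor, and as log2 values, which are the deposited values on a variance-stabilised scale. A difference is a difference of group means on that log2 scale with its standard error (SE), tested with limma over 19387 genes with Benjamini-Hochberg adjustment. A gene is said to rise or fall only where its adjusted p is below 0.05. Single values are listed in the order of the library numbers, which are names and carry no order. Depth ran from 16403903 to 49026986 reads per library. The 5 libraries of sequencing lane 4 held at most 18212783 reads and the others at least 29008340, and no lane held more than 1 library of a group.

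Adipocyte markers were abundant in all libraries. The mean log2 value of 11 mature adipocyte genes ran from 13.6 in Control 2 and 13.6 in Control 1 to 15.9 in LFCR 1, and the mean of 13 luminal epithelial genes from 9.90 to 12.3. Some libraries stood apart before any test. Control 1 and Control 2 lay below the other 3 Control libraries in 25 of the 30 genes and were the lowest 2 of the 29 libraries in the adipocyte list. They were also the lowest Control libraries over 8 thermogenic adipocyte genes (6.73 and 5.94, log2, against at least 7.62 in the other 3). The part of the thermogenic genes in that pattern was not tested. In 8 libraries (Obese 1 and 5, LFD 1, LFCR 1 and 3, MCR 1, 3 and 4) the mean of 12 B cell genes was at most 6.58 (log2), against at least 10.1 in the other 21. Skeletal muscle genes had a mean above 7 in 7 libraries, with the highest in Obese 2 (11.6). Results that rest on Control 1 and 2 or on the libraries low in B cell genes are given with and without them. The 7 libraries with high muscle means were not left out together. For them the muscle list mean was used as a covariate, and each library was left out in turn.

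The genes lie on many chromosomes, and sequence of the promoter is shown for some of them, picked for the reasons that follow. RefSeq promoter windows of GRCm38.p6, from 250 bases before the annotated start to 50 bases after it, were matched by symbol for 24 of the 30 genes. Cpt1a and Cpt2, the outer and inner carnitine palmitoyltransferases, are shown because their transcripts went in opposite directions. Acot1, Acot2 and Acot4 are shown because they are neighbouring thioesterase genes with different responses. Hadhb is shown because it starts head to head with Hadha. Capitals mark AGGTCA, the core motif of PPAR and many other nuclear receptors, on either strand. The windows are chr19:3323051-3323350 (plus strand), chr4:107923540-107923839 (minus strand), chr5:30155003-30155302 (plus strand), chr12:84009252-84009551 (plus strand), chr12:83987611-83987910 (plus strand) and chr12:84038129-84038428 (plus strand).
Cpt1a: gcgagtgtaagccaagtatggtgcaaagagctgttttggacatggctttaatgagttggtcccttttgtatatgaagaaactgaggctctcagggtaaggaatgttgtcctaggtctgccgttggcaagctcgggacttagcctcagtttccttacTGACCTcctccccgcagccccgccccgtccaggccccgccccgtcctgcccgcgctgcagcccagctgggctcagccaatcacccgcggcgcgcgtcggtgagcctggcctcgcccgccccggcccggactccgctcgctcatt
Cpt2: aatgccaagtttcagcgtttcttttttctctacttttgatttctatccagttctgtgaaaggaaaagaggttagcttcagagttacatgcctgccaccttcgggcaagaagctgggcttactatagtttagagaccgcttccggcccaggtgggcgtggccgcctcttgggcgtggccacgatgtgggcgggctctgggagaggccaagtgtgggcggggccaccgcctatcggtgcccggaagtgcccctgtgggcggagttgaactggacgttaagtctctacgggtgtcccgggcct
Hadhb: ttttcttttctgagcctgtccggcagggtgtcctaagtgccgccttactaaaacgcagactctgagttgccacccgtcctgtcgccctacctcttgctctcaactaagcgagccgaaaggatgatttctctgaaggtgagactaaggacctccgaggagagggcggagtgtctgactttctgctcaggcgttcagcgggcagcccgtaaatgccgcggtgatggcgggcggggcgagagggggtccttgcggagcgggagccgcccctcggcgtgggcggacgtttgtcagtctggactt
Acot1: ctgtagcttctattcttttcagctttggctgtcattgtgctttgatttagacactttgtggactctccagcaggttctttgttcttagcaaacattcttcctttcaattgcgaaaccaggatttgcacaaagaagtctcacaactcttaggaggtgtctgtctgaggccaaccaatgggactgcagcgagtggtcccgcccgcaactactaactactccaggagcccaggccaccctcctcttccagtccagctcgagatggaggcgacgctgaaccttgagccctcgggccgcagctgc
Acot2: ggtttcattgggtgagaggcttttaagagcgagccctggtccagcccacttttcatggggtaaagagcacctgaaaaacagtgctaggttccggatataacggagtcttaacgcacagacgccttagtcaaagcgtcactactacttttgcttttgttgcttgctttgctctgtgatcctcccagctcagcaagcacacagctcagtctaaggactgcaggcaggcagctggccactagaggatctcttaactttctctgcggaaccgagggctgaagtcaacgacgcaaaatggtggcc
Acot4: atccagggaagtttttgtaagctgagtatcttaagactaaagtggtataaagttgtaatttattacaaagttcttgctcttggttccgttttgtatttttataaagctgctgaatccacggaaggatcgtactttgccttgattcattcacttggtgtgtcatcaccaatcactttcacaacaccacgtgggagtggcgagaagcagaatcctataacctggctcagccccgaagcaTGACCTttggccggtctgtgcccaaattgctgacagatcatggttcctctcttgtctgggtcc

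The core motif was present in the windows of 4 of the 24 genes, Acadm, Acadvl, Acot4 and Cpt1a, and in 16.3% of all 32851 promoter windows. Its first base lay at position -94 from the RefSeq start in Cpt1a and at -13 in Acot4. The Cpt1a window lies wholly inside the span of the gene in the GENCODE annotation, which begins at 3322334. The direct repeat AGGTCANAGGTCA, searched on both strands, was in 0 of the 24 and in 0.0396% of all windows, and TCAAGGTCA, which contains the core motif, in 0 and in 0.423%. A match is only a match of letters, and these windows do not cover distal elements. The Hadha and Hadhb windows share 228 bases, since these genes start on opposite strands of chromosome 5. By global alignment the windows of Acot1, Acot2 and Acot4 were identical in pairs at 46.8% to 47.8% of aligned positions, and those of Cpt1a and Cpt2 at 48.0%. The Acot4 window holds TATAAA 3 times (either strand) and the other windows printed hold 0.

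In Obese against Control, 4 of the 30 genes rose and 1 fell. Cpt1a, which makes the carnitine esters at the outer mitochondrial membrane, rose from 4135 ± 232 to 6043 ± 595 normalized counts (SD, n = 5 each). Oxct1, the enzyme that activates ketone bodies for burning, rose by 0.75 ± 0.16 (SE), Hsd17b4, a peroxisomal multifunctional enzyme, by 0.80 ± 0.22 and Acadm, the medium-chain acyl-CoA dehydrogenase, by 0.74 ± 0.25 on the log2 scale. Acot1, a cytosolic thioesterase, fell from 844 ± 282 to 421 ± 61.4 counts. Of all genes tested, 9.44% rose and 3.44% fell, so 4 of 30 is a share near the background. The median difference of the 30 was 0.07, against -0.03 for all genes. The calls of Cpt1a and Oxct1 were kept under all 20 alternatives. The count of 5 became 2 without Control 1, 2 without Obese 1, 3 without Obese 3 and 2 without Obese 5, 2 without the 8 libraries low in B cell genes, and 2 higher and 7 lower with the adipocyte list as a covariate.

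In LFCR against Obese, 20 of the 30 genes rose and 1, Cpt1a, fell. Largest were the rises of Acot4, a peroxisomal thioesterase (2.26 ± 0.34 SE), of Ppara (1.98 ± 0.39), of Acsl1, the main long-chain acyl-CoA synthetase of adipocytes (1.64 ± 0.33), and of Cpt2 (1.35 ± 0.26). Cpt1a fell by 0.97 ± 0.13 (adjusted p = 1.16e-05, limma), and its adjusted p was the smallest of the 30. Across all genes 11.9% rose and 9.42% fell. The median of the 30 was 0.74 and that of all genes -0.04. Of the 30, the 9 without a call were Slc25a20, Acadm, Etfa, Hadhb, Acaa2, Hsd17b4, Acot1, Bdh1 and Oxct1. The total of 21 stayed within 1.5 times under every alternative run, from 14 to 23, and with the adipocyte covariate it was 12 higher and 2 lower, Hsd17b4 being the other fall.

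In MCR against Obese, 9 of the 30 rose and 1 fell, again Cpt1a (-0.96 ± 0.13 SE, adjusted p = 8.06e-05, limma). The 4 largest rises were Acot4 (1.54), Ppara (1.25), Acadvl (1.16) and Ppargc1b (1.10), and the others were Cpt2, Crat, Acadl, Etfb and Acot2. Background shares were 6.66% higher and 5.69% lower. The median of the 30 was 0.61, against -0.04. The count of 10 depended on single libraries, being 5 without Obese 2, 6 without Obese 4, 5 without MCR 1, 21 without MCR 2, 5 without MCR 3 and 6 without MCR 4. MCR 2 was the lowest MCR library in 27 of the 30 genes and in the adipocyte list (14.5, against at least 15.5 in the other 3). With lane as a term the count was 5, with the luminal covariate 4, and without the libraries low in B cell genes, which leaves MCR 2 alone, 0.

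In ICR against Obese, 6 rose and Cpt1a fell (-0.58 ± 0.13 SE). Acot4 rose by 2.18 ± 0.34, Ppara by 1.46 ± 0.39, Acsl1 by 1.30 ± 0.33 and Cpt2 by 0.91 ± 0.26, and the other rises were Ppargc1b and Acot2. Background shares were 3.99% and 5.23%. The median of the 30 was 0.34, against 0.0046. Under the luminal covariate 2 calls were left, Cpt1a and Acot4, and with the adipocyte covariate there were 7 rises and 4 falls.

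In LFD against Obese, 1 gene, Acot1, rose (1.06 ± 0.28 SE, adjusted p = 0.0260, limma) and 0 fell, against 2.7% and 3.28% of all genes. At an unadjusted p below 0.05 there were 9, and voom on the recovered reads called 1. The median was 0.29, against -0.0025. The single call was lost without any 1 of Obese 1, 2 or 3 or LFD 1, 3, 4 or 5; without LFD 1 another gene was called in its place, and the count was 0 without Obese 1, 0 without Obese 2, 0 without Obese 3, 0 without LFD 3, 0 without LFD 4 and 0 without LFD 5. It was also lost without the libraries low in B cell genes and with the luminal covariate (count 0 in both), while the adipocyte covariate gave 4 rises and 1 fall. All 4 diet comparisons use the same 5 Obese libraries, so their differences are not independent.

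Marker lists of other cells moved with these groups too, as measured levels with no test. The mean of 8 thermogenic adipocyte genes (log2) ran from 5.71 to 6.73 in Obese, from 6.88 to 8.31 in LFCR and from 7.14 to 8.21 in MCR, so neither group overlapped Obese, while ICR (6.20 to 7.06) and LFD (6.05 to 9.14) did. The mean of 9 macrophage genes ran from 10.51 to 11.41 in Obese, and lower, without overlap, in LFCR (9.32 to 10.42), MCR (9.70 to 10.49) and ICR (10.24 to 10.47), with LFD from 10.15 to 10.83. The part of both lists in the rises over Obese, those of Ppara, Acadvl and Ppargc1b among them, was not tested. Ppargc1a, a related gene described further on, is 1 of the 8 thermogenic genes. Ucp1, a gene of thermogenic adipocytes, did not follow the higher list mean of LFCR and MCR over Obese. Across all libraries its highest normalized counts were in Control 5 (3648), LFD 5 (2879), LFD 4 (2484) and Control 3 (1055). Those libraries also had the highest list means (9.30, 9.02, 9.14 and 8.49). Ucp1 ran from 20.4 to 3648 in Control and from 1.95 to 2879 in LFD. Its normalized counts ran from 1.49 to 156 in Obese, from 4.02 to 51.2 in LFCR and from 3.03 to 34.7 in MCR. In ICR they ran from 0 to 8.62. Each of these diet groups overlapped Obese, so the higher list mean in LFCR and MCR does not stand for a rise of Ucp1.

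**Figure D1:**
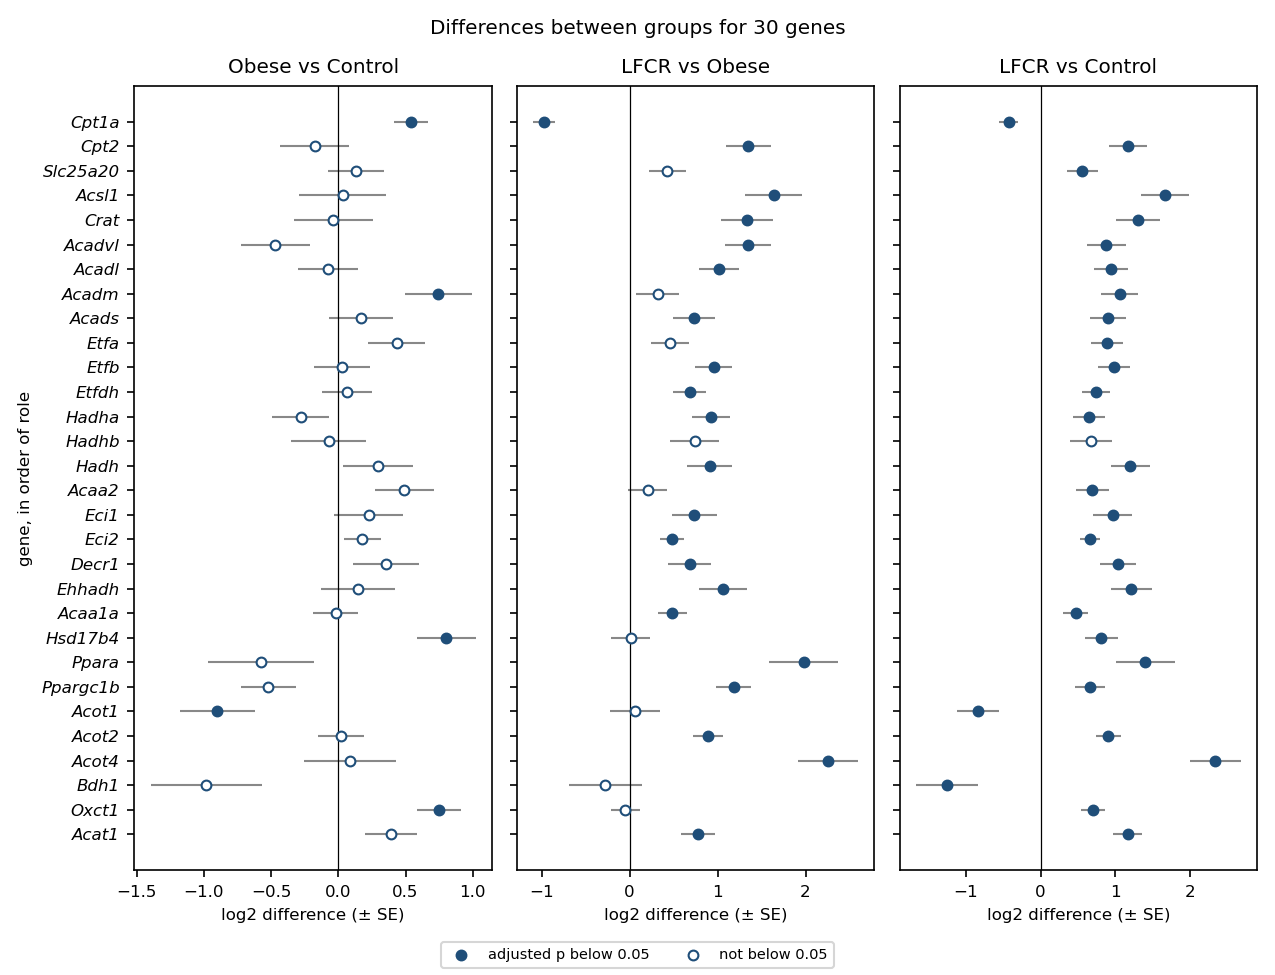
Log2 difference of group means (horizontal axis, log2 units, ± SE) for each of the 30 genes (vertical axis) in Obese vs Control, LFCR vs Obese and LFCR vs Control. Filled points have an adjusted p below 0.05 and open points do not, and Cpt1a is the 1 filled point left of 0 in LFCR vs Obese.

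Calorie-restricted mice were also set against mice on the unrestricted low-fat diet. For LFCR this asks what the restriction adds to a low-fat diet. MCR also differed from LFD in the kind of diet and ICR in the schedule, which cannot be told apart from restriction. In LFCR against LFD, 6 of the 30 rose and 2 fell, against 6.29% and 3.32% of all genes. Acot4 rose by 1.51 ± 0.34 (SE), Acsl1 by 1.10 ± 0.33, Ppargc1b by 0.86 ± 0.20 and Cpt2 by 0.82 ± 0.26, with Acot2 and Acat1 the other rises. Acot1 (-0.99 ± 0.28) and Cpt1a (-0.63 ± 0.13) fell. The count of 8 was 2 without LFD 1, 4 without LFD 3, 4 without LFCR 1, 2 without LFCR 2 and 4 without LFCR 3, and it was 0 without the libraries low in B cell genes and 0 with the luminal covariate. In these groups the mean of the luminal list was 11.6 ± 0.646 in LFD and 10.7 ± 0.285 in LFCR (SD, n = 5 each), and its part in the result was not tested beyond that covariate.

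In MCR against LFD, 0 rose and 1, Cpt1a, fell (-0.62 ± 0.13 SE, adjusted p = 0.0367, limma), against 0.165% and 0.129% of all genes. The count was 0 without LFD 1, 2 without LFD 2, 0 without LFD 3, 0 without LFD 4, 0 without LFD 5, 0 without MCR 1, 4 without MCR 2, 0 without MCR 3 and 0 without MCR 4. It was 0 with no filter, with lane as a term, and with the luminal or the muscle covariate. In ICR against LFD, limma called 0 of the 30 (background 0.0206% higher and 0.0103% lower), 3 had an unadjusted p below 0.05, the lowest adjusted p was 0.120, and voom called 0. The median of the 30 was 0.43 in LFCR, 0.32 in MCR and 0.07 in ICR, each against LFD. A direct test of any difference among LFCR, MCR and ICR called 0 of the 30 by limma's F-test (background 0% of all genes) and 0 by voom, with 5 at an unadjusted p below 0.05 and a lowest adjusted p of 0.238. A difference between the 3 restricted diets was therefore not shown, which does not show that they act alike.

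Against the Control mice, which had not been obese, LFCR mice had 26 of the 30 genes higher and 3 lower (Cpt1a -0.43, Acot1 -0.84, Bdh1 -1.26). The largest rises were Acot4 (2.34 ± 0.34 SE), Acsl1 (1.67 ± 0.33), Ppara (1.40 ± 0.39) and Crat (1.30 ± 0.30), and Hadhb was the gene with no call. Of all genes 20.1% rose and 18% fell in that comparison. In MCR, 21 rose and the same 3 fell, against 13.9% and 15.7%, led by Acot4 (1.63), Hadh (1.07), Crat (1.02) and Acat1 (1.00). In ICR, 5 rose and 0 fell, against 3.69% and 0.882%, namely Acot4 (2.26), Acsl1 (1.33), Acat1 (0.72), Acot2 (0.71) and Oxct1 (0.64). In LFD, limma called 0 of the 30 and 0% of all genes rose or fell, 11 of the 30 had an unadjusted p below 0.05, the lowest adjusted p was 0.394, and voom called 0. The medians of the 30 were 0.41 for LFD, 0.90 for LFCR, 0.70 for MCR and 0.49 for ICR, with medians of all genes between -0.03 and 0.01.

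The calls in these comparisons depended on Control 1 and Control 2. Leaving libraries out also leaves fewer per group for every gene, and the share of all genes called without them is not given here. A loss of calls is thus not shown to be particular to the 30 genes. Without both, LFCR against Control had 4 calls, all rises (Acsl1, Acot2, Acot4 and Acat1), and MCR and ICR against Control had 0. The count of 24 in MCR was 5 without Control 1, 7 without Control 2, 3 without MCR 1, 3 without MCR 3 and 8 without MCR 4, and that of 5 in ICR was 1 without Control 1, 1 without Control 2, 1 without ICR 1, 1 without ICR 2 and 3 without ICR 4. With the mean of the adipocyte list as a covariate, LFCR, MCR and ICR against Control each had 0 calls. Control libraries averaged 14.3 ± 0.667 over the adipocyte list and Obese libraries 14.9 ± 0.505 (log2, SD, n = 5 each). LFD averaged 15.0 ± 0.112 and LFCR 15.6 ± 0.277 (n = 5 each), MCR 15.3 ± 0.522 (n = 4) and ICR 15.3 ± 0.254 (n = 5). That list therefore moved with the 30 genes in the diet groups set against Control. In Obese the list was higher than in Control as well, while the median difference of the 30 genes was 0.07. The covariate run cannot tell a change of adipocyte share from a change in adipocytes.

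**Figure D2:**
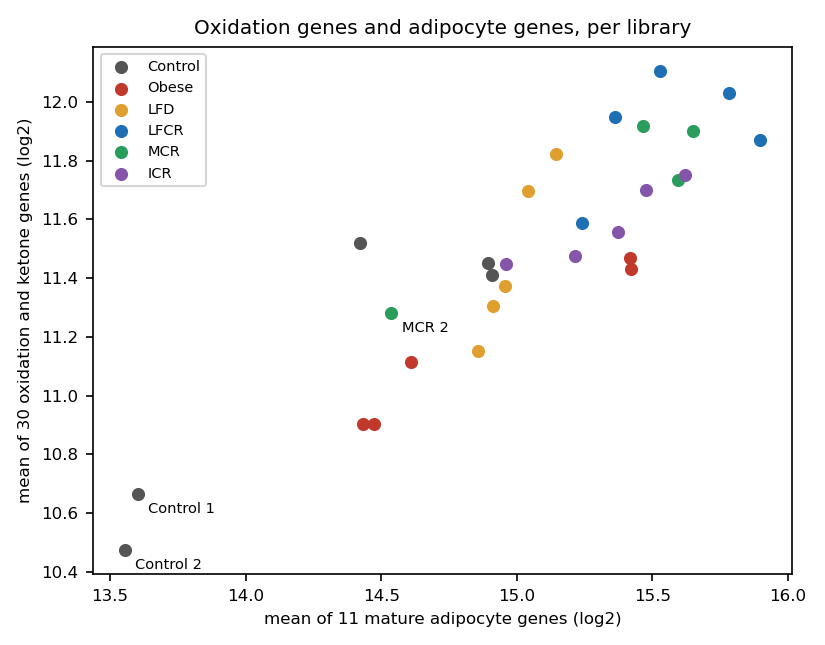
Mean log2 value of the 30 genes (vertical axis) against the mean log2 value of 11 mature adipocyte genes (horizontal axis), 1 point per library, coloured by group. Control 1 and Control 2 are lowest on both axes, and 2 Obese libraries (1 and 5) have adipocyte means like those of LFCR with lower means of the 30 genes.

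**Figure D3:**
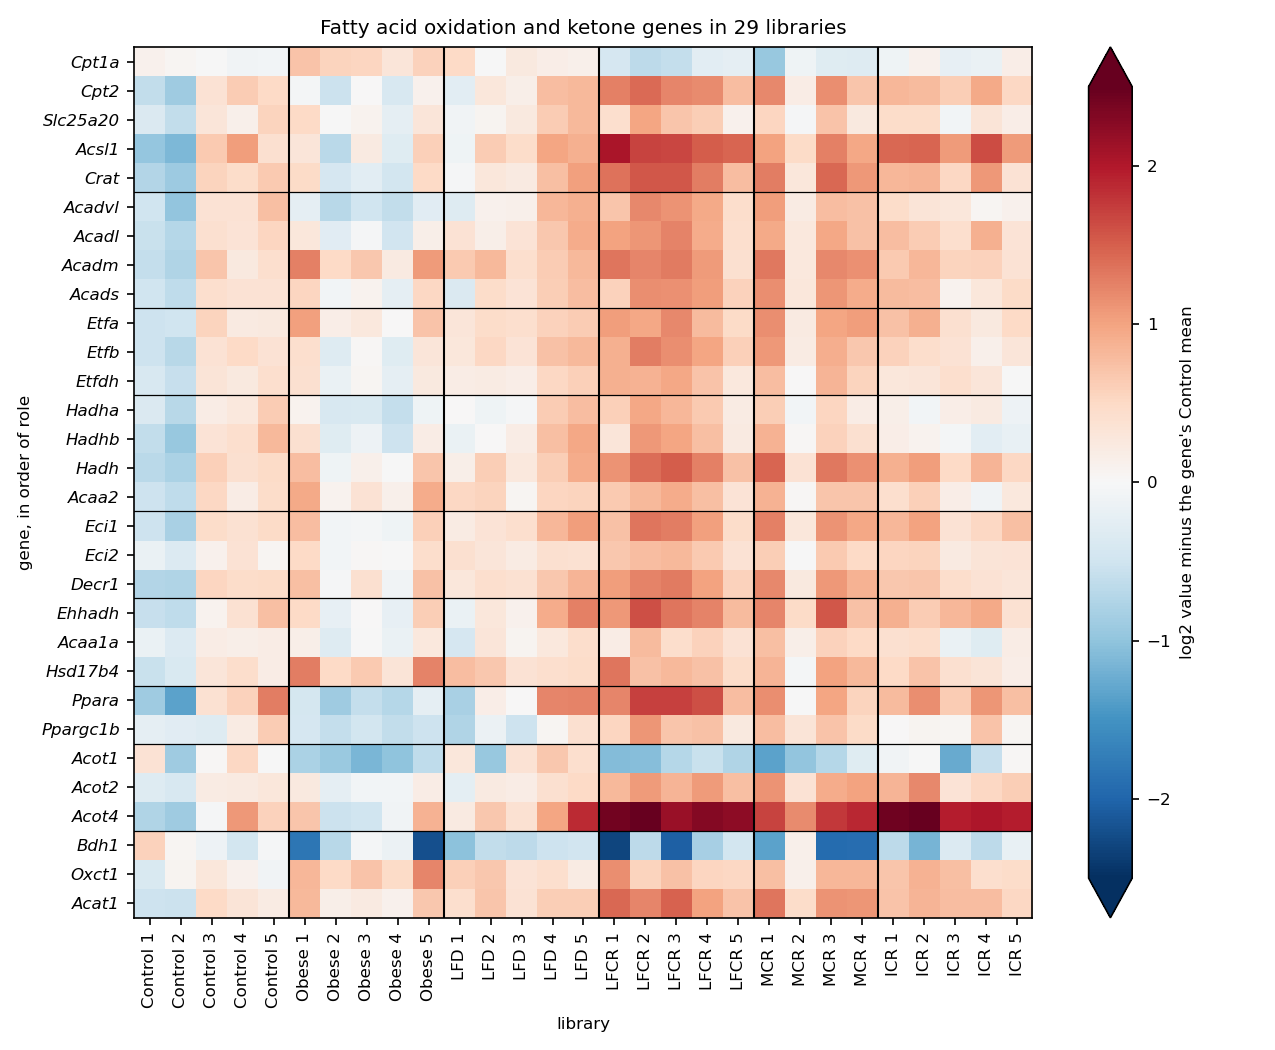
Log2 value of each of the 30 genes (rows, ordered by role) in each of the 29 libraries (columns, ordered by group), as the difference from the mean of the gene in the Control libraries, in log2 units. Acot4 and Acsl1 are darkest red in LFCR and ICR, Cpt1a is red in Obese and blue in LFCR, and Bdh1 is blue in single libraries of Obese, LFCR and MCR.

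The carnitine shuttle and activation enzymes hold the sharpest contrast. Cpt1a lies on chromosome 19 from 3322334 to 3385733 in GRCm38, and encodes the liver form of the first carnitine palmitoyltransferase, the step usually taken as rate-limiting for entry of long chains. Its normalized counts were 4442, 4296, 4096, 3879 and 3964 in Control and 6774, 6074, 6034, 5120.4 and 6210.2 in Obese. They were 5843, 4080.1, 4919, 4628 and 4494 in LFD and 3100.0, 2609.8, 2723, 3441 and 3548 in LFCR. In MCR they were 2140.0, 3840.4, 3361 and 3277, and in ICR 3833, 4458, 3582, 3681 and 4661. Every Obese library was above every Control library and above every LFCR, MCR and ICR library, and every LFCR and MCR library was below every Control library. The difference was 0.54 ± 0.13 (SE) in Obese against Control (adjusted p = 0.00672, limma) and -0.34 ± 0.13 in LFD against Obese (adjusted p = 0.114, limma). For ICR against Control the difference was -0.04 ± 0.13 (adjusted p = 0.857, limma). Against Obese, the fall in LFCR and in ICR was kept under all 19 alternatives of each comparison, and that in MCR under all but the one that leaves MCR 2 alone.

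Cpt2, which turns the carnitine esters back into acyl-CoA inside the mitochondrion, ran the other way. It lies on chromosome 4 from 107903981 to 107923610. Control libraries held 2264 ± 974 counts and Obese libraries 1862 ± 355 (SD, n = 5 each). LFD held 2762 ± 843, LFCR 4767 ± 735 and ICR 3499 ± 411 (n = 5 each), and MCR 3813 ± 1152 (n = 4). No LFCR library (lowest 3575) overlapped the Obese libraries (highest 2228). The ratio of Cpt1a to Cpt2 counts was 3.32 ± 0.602 in Obese and 0.671 ± 0.202 in LFCR (SD, n = 5 each), as a description within each library, and counts of these genes are not scaled for their different lengths. Acsl1 had 21923 to 52618 counts in Obese and 94997 to 142339.7 in LFCR, with 72492 to 108133 in ICR. Those of MCR, 48626 to 83304, overlapped Obese, and the difference of 0.90 ± 0.34 had an adjusted p of 0.0887 (limma). Crat, the carnitine acetyltransferase, rose in LFCR (1.34 ± 0.30 SE) and MCR (1.06 ± 0.31) against Obese. For Slc25a20, the carnitine carrier of the inner membrane, the difference in LFCR against Obese was 0.43 ± 0.21 (adjusted p = 0.154, limma).

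**Figure D4:**
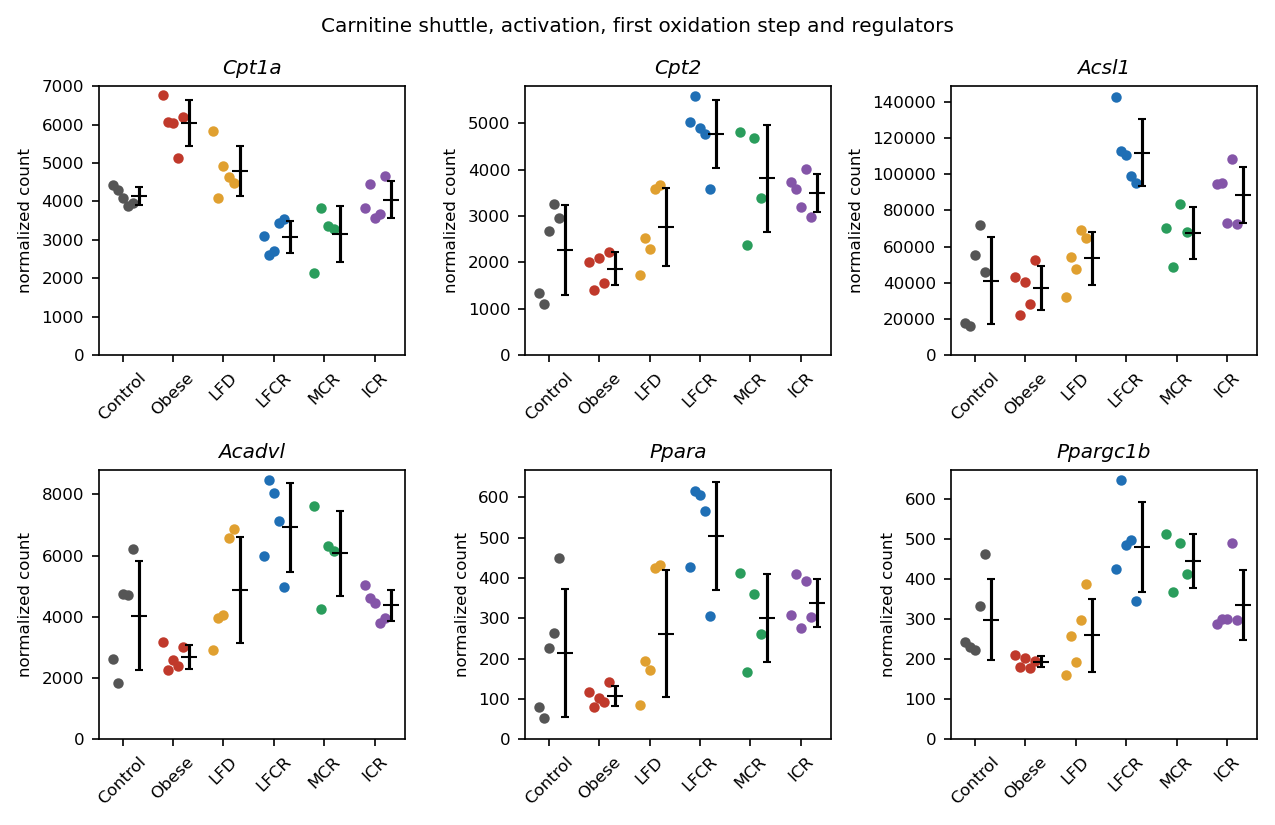
Normalized counts (vertical axis, from 0) of Cpt1a, Cpt2, Acsl1, Acadvl, Ppara and Ppargc1b by group (horizontal axis), 1 point per library, with the group mean and SD as a black bar. Cpt1a is highest in Obese, where the other 5 genes have their lowest group means.

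Acyl-CoA dehydrogenases take the first electrons from the chain, each preferring a chain length. Acadvl, for very long chains, lies on chromosome 11 from 70010183 to 70015411, and 42.9% of its exon bases lie opposite exons of Dvl2, so the value depends on strand-aware counting, and the strand setting used is not stated. It held 2605, 1833, 4755, 4722 and 6228 counts in Control and 3159.6, 2252, 2577, 2376 and 3007 in Obese. It held 2926, 3971, 4041, 6557 and 6855 in LFD and 5982, 8463, 8039, 7114 and 4986 in LFCR. MCR had 7615, 4245, 6313 and 6143 and ICR 5029.5, 4606, 4451, 3809 and 3946. All LFCR, MCR and ICR libraries were above all Obese libraries, and the difference from Obese was 1.35 ± 0.26 (SE) in LFCR and 1.16 ± 0.28 in MCR, while 0.71 ± 0.26 in ICR did not pass (adjusted p = 0.0884, limma).

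Acadl, the long-chain dehydrogenase on chromosome 1 from 66830839 to 66863277, had the most normalized counts per kilobase of exon of the 4 in every group. Its counts were 4296, 3816, 8374, 7958 and 9162 in Control and 7663, 5177, 6160.2, 4501 and 6958 in Obese. LFD had 8157, 6988, 7984, 10078 and 12108 and LFCR 12747, 13506, 15050.5, 11968 and 8509. MCR had 12231, 7586, 12354 and 10498 and ICR 10766, 9806, 8439.6, 11741 and 7988. LFCR did not overlap Obese, and it rose by 1.02 ± 0.22 (SE, adjusted p = 0.00180, limma), with 0.81 ± 0.24 in MCR. Acadm differed in pattern from Acadvl and Acadl. It was at 6014 ± 2455 counts in Control, 9693 ± 2778 in Obese and 12005 ± 2768 in LFCR (SD, n = 5 each), with a difference of 0.32 ± 0.25 from Obese to LFCR (adjusted p = 0.403, limma). Its rise in Obese had an adjusted p of 0.0482 and was lost under 14 of 20 alternatives, among them the leaving out of Control 1, Control 2, Obese 1, Obese 3 or Obese 5 and voom, over which adjusted p ran from 0.0177 to 0.517. Acads, for short chains, rose in LFCR (0.73 ± 0.24), a call lost without any 1 of Obese 2, 3 and 4 and LFCR 2, 3 and 4.

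The electron transfer flavoprotein hands these electrons to the respiratory chain. Its beta subunit Etfb lies on chromosome 7 from 43444083 to 43457800, and 58.2% of its exon bases are shared on the same strand with the transcript Gm45233, so its count may have lost reads as ambiguous. Etfb held 1831, 1628, 3374, 3738 and 3383 counts in Control and 3543, 2118, 2679.9, 2131 and 3280.3 in Obese. LFD had 3231, 3779, 3336, 4377 and 4665 and LFCR 4891, 6414, 5950.5, 5274 and 3989. MCR had 5639, 3030.3, 4954 and 4206 and ICR 3971, 3608, 3414, 2881 and 3249. The lowest LFCR library lay above the highest Obese library, and the rise was 0.95 ± 0.21 (SE, adjusted p = 0.00191, limma). Etfdh, the oxidoreductase that takes electrons from the flavoprotein, rose by 0.68 ± 0.19, with 1 LFCR library (LFCR 5) inside the Obese range. For Etfa, the alpha subunit, the difference was 0.46 ± 0.21 (adjusted p = 0.131, limma).

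The later steps of the spiral are run for long chains by the trifunctional protein, whose alpha and beta subunits are Hadha and Hadhb. Hadha lies on chromosome 5 from 30118304 to 30155162 and Hadhb on chromosome 5 from 30155248 to 30184593, head to head, as the promoter windows show. Hadha held 5768, 4583, 8468, 8930.3 and 11554 counts in Control and 7887, 5654, 5758, 4919 and 6891 in Obese. LFD had 7559.9, 6896, 7355, 11643 and 12774 and LFCR 11302, 14512, 13309, 11704 and 8553. MCR had 11512, 7133, 10798 and 8502 and ICR 8224, 7136, 8386, 8682 and 6822. LFCR lay above Obese in each library, with a difference of 0.93 ± 0.21 (SE, adjusted p = 0.00273, limma). For Hadhb the difference was 0.74 ± 0.28 with an adjusted p of 0.0580 (limma), and the groups overlapped. Of Hadhb's windows of 76 bases, the read length, 16.6% also occur in other genes, chiefly the pseudogene Gm13910. Hadh, which works on shorter chains, rose by 0.91 ± 0.26, and Acaa2, the mitochondrial thiolase, had a difference of 0.21 ± 0.22 (adjusted p = 0.558, limma). In MCR and ICR against Obese none of these 4 genes was called by limma, with lowest adjusted p-values of 0.0645 and 0.293, and 2 and 0 had an unadjusted p below 0.05.

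Unsaturated chains need their double bonds moved or reduced first, by the isomerases Eci1 and Eci2 and the reductase Decr1. All 3 rose in LFCR against Obese, by 0.74 ± 0.26, 0.48 ± 0.14 and 0.68 ± 0.25 (SE). Eci2, on chromosome 13 from 34977748 to 35027096, had the smallest adjusted p of the 3 (0.0121, limma). It held 1663, 1470.3, 2041, 2411 and 1949.7 counts in Control and 2654, 1792, 1926, 1878 and 2558 in Obese. LFD had 2488, 2312, 2172, 2475 and 2455 and LFCR 3022, 3234, 3335, 2966 and 2427. MCR had 2907, 1879, 2977 and 2683 and ICR 2734, 2772, 2206, 2368 and 2374. LFCR 5 lay inside the Obese range and the other 4 LFCR libraries above it. The calls of Eci1 and Decr1 were lost without any 1 of Obese 2, 3 and 4 and LFCR 2, 3 and 4, and that of Decr1 also without LFCR 1 and with voom.

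Of the peroxisomal enzymes, Ehhadh and Hsd17b4 are multifunctional enzymes of the spiral and Acaa1a is a thiolase. Ehhadh, on chromosome 16 from 21761287 to 21787807, held 568, 545, 913, 1126 and 1463 counts in Control and 1225, 746, 872, 745 and 1338 in Obese. LFD had 762, 1054, 929.6, 1662 and 2103 and LFCR 1865, 2665, 2208, 2061 and 1516. MCR had 2032, 1208, 2587 and 1447 and ICR 1605, 1346, 1551, 1695 and 1130.0. All LFCR libraries were above all Obese libraries, and Ehhadh rose by 1.06 ± 0.27 (SE, adjusted p = 0.00637, limma). Hsd17b4 went otherwise, from 4541 ± 1317 counts in Control to 7947 ± 2454 in Obese and 7884 ± 1915 in LFCR (SD, n = 5 each). Its highest Obese values, 10728 and 10418, were in Obese 1 and Obese 5, both low in B cell genes, and its rise over Control was lost without either of them, without Control 1 and without both Control 1 and 2. Acaa1a shares 9.41% of its windows of 76 bases with Acaa1b, and rose by 0.49 ± 0.17 in LFCR, a call lost without any 1 of Obese 2, 3 and 4 and LFCR 2, 3 and 4.

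The regulators were low transcripts with large differences. Ppara, on chromosome 15 from 85734983 to 85802819, held 80.3, 52.1, 227, 263 and 449 normalized counts in Control and 118, 79.9, 103, 93.4 and 142 in Obese. LFD had 85.7, 194, 171, 425 and 432 and LFCR 428, 615, 607, 568 and 306. MCR had 412, 168, 362 and 259.9 and ICR 309, 409.7, 277, 393 and 303. The highest Obese value lay below the lowest value of LFCR, MCR and ICR, while Control 1, Control 2 and LFD 1 were as low as Obese. Against Obese it rose in LFCR (1.98 ± 0.39 SE), MCR (1.25 ± 0.42) and ICR (1.46 ± 0.39), with adjusted p-values of 0.000724, 0.0489 and 0.0184 (limma). The MCR call was lost under 13 of its 18 alternatives, among them the leaving out of Obese 1, 2, 3 or 4 and of MCR 1, 3 or 4, and the ICR call with the luminal covariate.

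Ppargc1b encodes PGC-1β, a coactivator of nuclear receptors that drives mitochondrial genes. It held 243, 231, 223, 333 and 462 normalized counts in Control and 209.6, 181, 202, 179 and 194 in Obese. LFD had 159.6, 257, 192, 298 and 388 and LFCR 426, 647, 484, 496 and 345. MCR had 512, 367, 490.0 and 411 and ICR 288, 301, 299.6, 489 and 296. Obese libraries spanned only 179 to 209.6 and lay below all LFCR, MCR and ICR libraries. The rise over Obese was 1.18 ± 0.20 (SE, adjusted p = 0.000175, limma) in LFCR, 1.10 ± 0.21 in MCR and 0.70 ± 0.20 in ICR. That of ICR was lost without any 1 of Obese 2, Obese 5 and ICR 4, and ICR 4 held 489 counts against at most 301 in the other 4 ICR libraries. Ppargc1b and Ppara were at 120.2 and 132 normalized counts per kilobase of exon in LFCR, where Acsl1, the highest of the 30, was at 10669.8.

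The thioesterases split acyl-CoA back into fatty acid and coenzyme A, in the cytosol (Acot1), the mitochondrion (Acot2) and the peroxisome (Acot4). Acot2 lies on chromosome 12 from 83987861 to 83993873, Acot1 from 84009490 to 84018371 and Acot4 from 84038379 to 84048601, all on the plus strand. Of their windows of 76 bases, 14.9% in Acot1 and 21.0% in Acot2 also occur in another gene, mostly in each other, so reads may have been split or lost between them. Acot1 held 1040.0, 421, 814, 1155 and 793 counts in Control and 454, 411, 349, 383 and 506 in Obese. LFD had 980.1, 403, 1031, 1288 and 1083 and LFCR 364, 372, 476, 533 and 464. MCR had 302, 394, 475 and 643 and ICR 757, 795, 319, 531 and 821. Control 2 and LFD 2 were as low as the Obese libraries, and the other Control and LFD libraries were above all of them. Its fall in Obese (-0.90 ± 0.28 SE, adjusted p = 0.0352, limma) was lost without any 1 of Control 1, 3, 4 and 5 and Obese 1, 2, 3 and 5. Against Obese, LFCR differed by 0.06 ± 0.28 (adjusted p = 0.901, limma).

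Acot2 moved otherwise. It held 591, 565, 869.9, 881 and 922 counts in Control and 897, 639, 711, 719 and 859 in Obese. LFD had 627, 875, 861, 999.8 and 1071 and LFCR 1341, 1586, 1370.1, 1606 and 1286. MCR had 1654, 976, 1451 and 1522 and ICR 1369, 1761, 954, 1092 and 1160.3. All LFCR, MCR and ICR libraries were above all Control and Obese libraries, and the rise over Obese was 0.89 ± 0.17 (SE), 0.83 ± 0.18 and 0.69 ± 0.17. Acot4 held 61.1, 53.1, 116, 277 and 189 normalized counts in Control and 205, 74.4, 77.0, 109 and 235 in Obese. LFD had 143, 205, 162, 259 and 499 and LFCR 735, 849, 618, 682 and 649. MCR had 435, 299, 461 and 505 and ICR 745, 1067, 537, 559 and 538. Each LFCR, MCR and ICR library was above each Control and Obese library, and Acot4 had the largest rise of the 30 over Obese in all 3 groups (2.26 ± 0.34, 1.54 ± 0.36 and 2.18 ± 0.34 SE, adjusted p = 5.59e-05, 0.00620 and 0.000237, limma). In counts, its mean was 5.04 times the Obese mean in LFCR, 3.03 times in MCR and 4.92 times in ICR. Its direction was kept under all alternatives, and its call in LFCR and ICR too, while in MCR it was lost where MCR 2 alone was left.

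**Figure D5:**
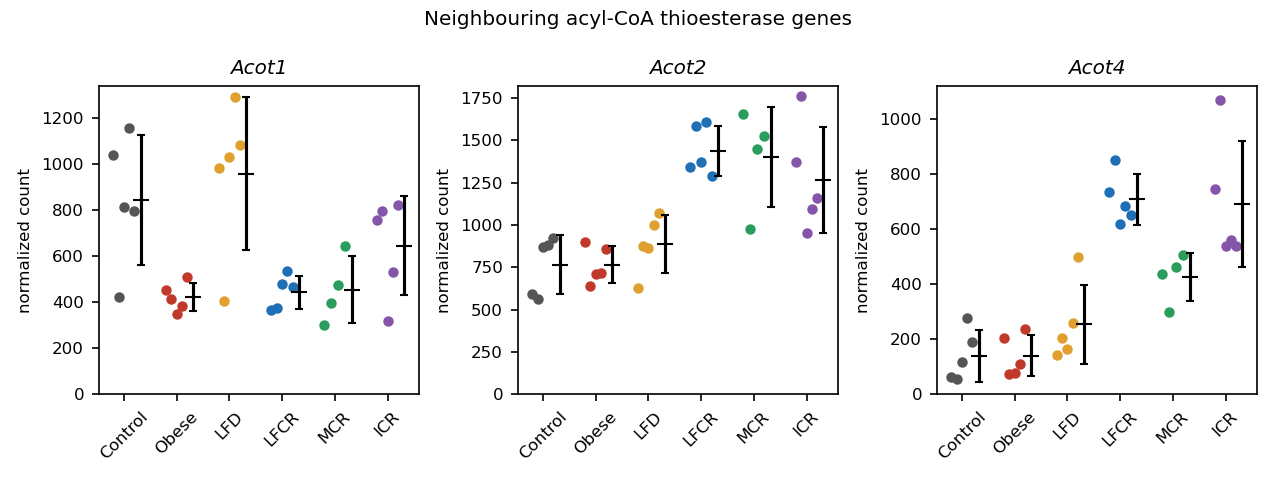
Normalized counts (vertical axis, from 0) of the neighbouring thioesterase genes Acot1, Acot2 and Acot4 by group (horizontal axis), 1 point per library, with the group mean and SD as a black bar. Acot4 and Acot2 are highest in the 3 calorie-restricted groups, and Acot1 is highest in Control and LFD.

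Of the ketone body enzymes, Oxct1 and Acat1 turn acetoacetate into acetyl-CoA, and Bdh1 exchanges hydroxybutyrate and acetoacetate. Oxct1, on chromosome 15 from 4026383 to 4155344, held 3379, 4584, 5328, 4751 and 4131 counts in Control and 7802, 6185, 7243, 6081 and 10318 in Obese. LFD had 6658, 6991, 5565, 5885 and 5025 and LFCR 9862, 6419, 7312, 6384 and 6288. MCR had 7398, 4782, 7843 and 7804 and ICR 7100.4, 8013, 7446, 5868 and 6056. Every Obese library was above every Control library (adjusted p = 0.00413, limma), and the diets overlapped Obese, with differences of -0.30 ± 0.16 (SE) for LFD, -0.05 ± 0.16 for LFCR, -0.11 ± 0.17 for MCR and -0.11 ± 0.16 for ICR, and with no adjusted p under 0.308. Acat1, on chromosome 9 from 53580522 to 53610382, held 2769, 2733, 5625, 4966 and 4572 counts in Control and 6940.1, 4405, 4609, 4258 and 6314 in Obese. LFD had 5271, 6399, 5119, 6055 and 6037 and LFCR 10752, 9220.2, 10987, 7999.9 and 6534. MCR had 10056, 5413, 8706 and 8486 and ICR 6535, 7130.0, 6768, 6762 and 5672. LFCR 5 lay within the Obese range and the other 4 LFCR libraries above it, and Acat1 rose by 0.78 ± 0.20 (SE, adjusted p = 0.00520, limma).

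Bdh1, on chromosome 16 from 31422280 to 31458901, was among the 2 lowest of the 30 genes per kilobase in each group. It held 296, 196, 172, 132 and 185 normalized counts in Control and 37.4, 107, 183, 169 and 24.3 in Obese. LFD had 80.8, 115, 111, 126 and 129 and LFCR 21.4, 111, 28.8, 96.1 and 130.5. MCR had 60.5, 209.8, 33.1 and 34.1 and ICR 111, 71.4, 145, 113 and 163. Low values fell in single libraries rather than whole groups. In the 8 libraries low in B cell genes Bdh1 ran from 21.4 to 80.8 (median 33.6), and in the other 21 from 71.4 to 296 (median 130.5). Its fall in LFCR against Control (-1.26 ± 0.41 SE, adjusted p = 0.0218, limma) became -0.65 (adjusted p = 0.0375) without those libraries, and in MCR it went from -1.26 to 0.13 with MCR 2 alone left. The part of the B cell transcripts in this fall was not tested beyond that.

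Among 65 related genes fixed as a second list, also chosen with earlier results of these data known, 62 passed the filter. In LFCR against Obese, 29 of the 62 rose and 4 fell, against 11.9% and 9.42% of all genes. In MCR against Obese, 19 rose and 4 fell, against 6.66% and 5.69% of all genes. In ICR against Obese, 12 rose and 5 fell, against 3.99% and 5.23% of all genes. In LFD against Obese, 0 rose and 1 fell, against 2.7% and 3.28% of all genes. In Obese against Control 7 rose and 0 fell, against 9.44% and 3.44%. The 7 rises in Obese and the 4 falls in MCR are shares near the background. The median of the 62 was 0.40 in LFCR against Obese. Cpt1b, the muscle form of the first carnitine palmitoyltransferase, had no call in any comparison. Its counts ran from 99.0 to 1163 in Control and from 151 to 464 in Obese, and 81.4% of its exon bases are shared with the readthrough transcript Gm44502. The highest counts of Cpt1b were in Control 5 (1163), LFD 5 (1021) and LFD 4 (883). Thermogenic list means there were 9.30, 9.02 and 9.14, and muscle list means 5.26, 10.9 and 5.26. The part of either list in Cpt1b was not tested. The fall of Cpt1a was therefore not met by a called rise of Cpt1b, whose difference in LFCR against Obese was 0.40 ± 0.56 (adjusted p = 0.671, limma).

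Ppargc1a, which encodes PGC-1α, rose over Obese in LFCR (1.69 ± 0.28), MCR (2.26 ± 0.30) and ICR (1.30 ± 0.28), as its relative Ppargc1b did. Fgf21, a hormone gene that PPARα can activate in liver, fell against Obese in LFD (-0.79 ± 0.20), LFCR (-0.86 ± 0.20), MCR (-0.79 ± 0.21) and ICR (-0.89 ± 0.20). Obese mice held 31.8 ± 21.9 normalized counts against 7.94 ± 2.31 in Control (SD, n = 5 each), a rise of 0.87 ± 0.20 (SE).

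Acot3, the next thioesterase gene of the chromosome 12 cluster, was at 0 to 3.13 normalized counts in Obese and at 22.9 to 101 in LFCR and 29.6 to 56.8 in ICR, and it holds 3.30% of the 76-base windows of Acot1 and 1.05% of those of Acot4. It rose over Obese in both groups (2.14 ± 0.27 and 2.03 ± 0.27 SE, adjusted p = 9.92e-06 and 4.34e-05, limma), and the log2 scale understates changes at such low counts. Hsd17b10, a short-chain dehydrogenase of the mitochondrion, rose over Obese in LFCR (1.23), MCR (1.19) and ICR (0.97). Acox2, a peroxisomal oxidase of branched chains, rose in LFCR by 1.65 ± 0.26, and Echs1, the hydratase of the spiral, in MCR by 1.48 ± 0.29. Aacs, which activates acetoacetate for lipid synthesis in the cytosol, rose in ICR by 2.25 ± 0.45. Acox2, Echs1 and Aacs were not particular to the group named. In each of them all LFCR, MCR and ICR libraries lay above all Obese libraries. Echs1 ran from 2212 to 3749 counts in Obese and from 6795 to 11270 in LFCR. Aacs ran from 864 to 1410 counts in Obese, from 6130 to 13941 in LFCR and from 2276 to 8373 in MCR. Acsl5, another acyl-CoA synthetase, fell in LFCR (-0.35 ± 0.08), MCR (-0.39 ± 0.09) and ICR (-0.39 ± 0.08), where Acsl1 was higher in all 3 means.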

How the data were processed

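RNA had been extracted with TRIzol, made into stranded total RNA libraries and sequenced as paired reads of 76 bases, per the labels' protocols. The submitters' processing notes name the mm10 build and the tools HTSeq 0.5.3p9, TopHat2 2.0.7 and DESeq2. The annotation, the counting options and the strand setting are not stated. After Acadvl, the members with the largest shares of exon bases opposite other genes were Bdh1 (13.7%), Oxct1 (12.6%), Acsl1 (9.91%) and Acot4 (9.21%). Their values depend on strand-aware counting too. For each gene and library of 30818 symbols, the authors deposited 1 log2 value, from 3.75 to 22.0. Inverting a variance-stabilising transform gave whole reads for 100% of values within 0.01, so the values are taken as variance-stabilised normalized counts, an inference from the values that no source states. Low values are compressed by it, and log2 differences understate the change of low genes.

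Genes with a normalized count of 10 or more in at least 4 libraries were kept (19387). limma 3.58.1 (R 4.3.3, statmod 1.5.0, trend and robust moderation) fitted 1 mean per group over 29 libraries, and the Benjamini-Hochberg adjustment ran over all genes kept, at a threshold of 0.05. Adjusted p-values are limma's throughout. The deposited values are not counts, and reads were recovered from them by the inference given above. DESeq2 and edgeR were not run here, and voom on the recovered reads, with TMM factors, was the count-based alternative. Other alternatives were no filter, quantile normalization, lane as a term, luminal, adipocyte or muscle list means as a covariate, leaving out the 8 libraries low in B cell genes, only the groups compared, and each library left out in turn. The muscle covariate and the leaving out of Control 1 and 2 together were chosen after the values were seen. The script was tested on simulated data. Replicate numbers follow the order of the samples and pair nothing.

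The members and all gene lists were chosen with earlier results of these data known. Values in every library are given for Cpt1a, Ppara, Ppargc1b, Acadl, Hadha, Acot1, Acot2, Oxct1, Bdh1 and the member of each role with the smallest adjusted p in LFCR against Obese. Up to 4 called rises and falls are named per comparison, as are related genes with the smallest adjusted p (up to 3 each way) and Cpt1b and Ppargc1a. Results for some related genes that this rule takes in are not reported here. Marker lists were mature adipocyte, thermogenic adipocyte, skeletal muscle, luminal epithelium, B cell and macrophage genes. Gene positions are from GENCODE vM21 on GRCm38, whose chromosomes are those of mm10, matched by symbol. Chromosome 18 genes are given without positions or sequence.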

Additional observations from a re-analysis of the deposited data

Results flagged for a closer look

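In 6 of the 180 sets of values tested (30 genes in 6 groups), 1 library lay far from the others of its group, by the gap to its nearest neighbour over the range of the group, and chance gives about 1 in 20. On the log2 scale these were Acadm in LFCR 5 (12.85) and in MCR 2 (12.71), both below the rest of their group, and Oxct1 in MCR 2 (12.23), also below. Acaa2 in LFD 3 (11.25) and Acot1 in LFD 2 (8.75) lay below the other LFD libraries. Ppargc1b in ICR 4 (9.01) lay above the other ICR libraries. MCR 2 was the lowest MCR library in 27 of the 30 genes and LFCR 5 the lowest LFCR library in 25, and LFCR 5 had the highest skeletal muscle list mean of its group (10.1). The part of these features in the values was not tested.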

How the results depend on the processing

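Counts of members called are given here for the alternatives that moved them by more than 1.5 times; the others stayed within it. Without the 8 libraries low in B cell genes the count was 2 in Obese vs Control, 0 in LFD vs Obese, 0 in MCR vs Obese, 0 in LFCR vs LFD, 0 in MCR vs LFD, 0 in MCR vs Control and 12 in ICR vs Control. With the luminal covariate the count was 3 in Obese vs Control, 0 in LFD vs Obese, 4 in MCR vs Obese, 2 in ICR vs Obese, 0 in LFCR vs LFD and 0 in MCR vs LFD. With the adipocyte covariate the count was 9 in Obese vs Control, 5 in LFD vs Obese, 11 in ICR vs Obese, 3 in LFCR vs LFD, 1 in ICR vs LFD, 0 in LFCR vs Control, 0 in MCR vs Control and 0 in ICR vs Control. With only the groups compared in the fit the count was 2 in Obese vs Control, 0 in LFD vs Obese, 0 in MCR vs LFD, 0 in MCR vs Control and 2 in ICR vs Control. With quantile normalization the count was 2 in LFD vs Obese and 5 in LFCR vs LFD. With lane as a term the count was 5 in MCR vs Obese, 5 in LFCR vs LFD and 0 in MCR vs LFD. With voom the count was 5 in LFCR vs LFD. With the muscle covariate the count was 5 in LFCR vs LFD and 0 in MCR vs LFD. With no filter on low values the count was 0 in MCR vs LFD. Without Control 1 and 2 the count was 4 in LFCR vs Control, 0 in MCR vs Control and 0 in ICR vs Control. Leaving out 1 library at a time gave 2 to 5 in Obese vs Control, 0 to 1 in LFD vs Obese, 5 to 21 in MCR vs Obese, 2 to 10 in LFCR vs LFD, 0 to 4 in MCR vs LFD, 3 to 25 in MCR vs Control and 1 to 7 in ICR vs Control. With the adipocyte covariate, the log2 difference of LFCR vs Control changed sign for Slc25a20 (-0.177), Acadm (-0.0319), Acads (-0.0283), Etfa (-0.0682), Etfdh (-0.0151), Hadha (-0.0456), Acaa2 (-0.215), Eci1 (-0.094), Decr1 (-0.0411), Acaa1a (-0.0183), Hsd17b4 (-0.145) and Bdh1 (0.324). With the adipocyte covariate, the log2 difference of MCR vs Control changed sign for Acsl1 (-0.17), Crat (-0.0124), Acadl (-0.0013), Etfdh (-0.0637), Eci2 (-0.0289), Decr1 (-0.0191), Hsd17b4 (-0.116) and Bdh1 (0.0144). Without the 8 libraries low in B cell genes, the log2 difference of MCR vs Control changed sign for Eci2 (-0.0005), Hsd17b4 (-0.0436) and Bdh1 (0.127). No direction of a called member turned under the other alternatives. The cause of these changes was not tested. MCR is represented by MCR 2 alone without the 8 libraries, and it is then assumed to vary like the other groups. Quantile normalization and voom moved the median of all genes by less than 0.1 (log2). No paired analysis was possible because the library numbers are names in order of the samples and each title carries its own mouse number. The SE of a log2 difference in LFCR vs Obese ran from 0.13 (Cpt1a) to 0.41 (Bdh1).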
